A study of Danio rerio with 6 samples.

Results

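A set of 21 zebrafish genes had moderately higher transcript levels in embryos treated with 11,12-EET than in embryos kept in DMSO. They were chosen from the values themselves, as probe sets with 1 gene symbol, a mean level of 5 or more on the log2 scale over the 6 arrays, every EET value above every DMSO value, and an EET mean at least 0.4 above the DMSO mean. The rule also leaves out a set of named genes and symbols that start with slc, col, cyp, krt, hsp, rpl or rps. The limits were met by 29 probe sets, 8 of them from 7 genes were left out (c6.2, clu, fn1b, hmgcs1, insig1, junbb and slc39a3), and the remaining 21 stand for 1 gene each, out of 8793 genes measured by the 10795 probe sets with 1 symbol. The 21 hold enzymes of fat and redox metabolism, secreted and membrane proteins, ubiquitin enzymes, kinases and a few nuclear proteins. They were chosen by size and separation of the difference and not by pathway, and whether they share a pathway was not tested.

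The EET group consisted of 3 pools of whole wild-type AB embryos that had been in 5 µM 11,12-EET from 24 to 36 h post fertilisation and were collected at 36 h. The DMSO group consisted of 3 pools of the same strain and age exposed to DMSO over the same 12 h. Embryos of both groups were freed of the chorion with pronase, 25 embryos were used per treatment group, and the RNA was measured on Affymetrix zebrafish arrays. The number of 25 is given per treatment group, so how many embryos each pool held is not known here. The labels call the arrays biological replicates and do not say whether the pools came from separate clutches. Pools of whole embryos do not show which tissue a transcript comes from, and a change in the number of cells of a type cannot be told apart from a change in RNA per cell.

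11,12-EET arises when cytochrome P450 epoxygenases act on arachidonic acid. Such epoxides are short-lived lipid mediators, best known in mammals for relaxing blood vessels and damping inflammation, and soluble epoxide hydrolase turns them into diols. They can be taken up into membrane lipids, degraded as fatty acids, and bind nuclear receptors of the PPAR family, which regulate fatty acid oxidation.

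Medians of the 6 arrays lay between 4.81 and 4.82, and the arrays correlated at 0.943 to 0.957 over all probe sets. Of 69 marker genes for 15 cell types 39 were measured, and in 14 types the brightest marker had a mean level of 5 or more, among them krt4 for epidermis, mylpfa for skeletal muscle and hbbe3 for red blood cells. The exception was the lens, whose only measured marker, cryaa, averaged 2.82 in EET and 3.19 in DMSO. The 39 markers had a median difference between EET and DMSO of 0.00 (19 of 39 higher by mean). Groups were apart for 4 of them, 1 on the higher side, epcam of the epidermis at 0.13, and 3 on the lower. The lower ones were ckma of muscle, col2a1a of the notochord and apoba of liver and yolk at -0.19, -0.19 and -0.25. The last pair came to -0.10 and -0.14 at the smallest with 1 array left out. Over all 8793 genes, 6.37% had every EET array above every DMSO array and 5.78% had every EET array below. In the fit over all 15502 probe sets, limma called 0 (0%) at an adjusted p under 0.05 and 817 (5.27%) had an unadjusted p under 0.05, and none of the 21 genes was called under any setting tried. Every array had been used to choose the genes, so the differences below are a description and carry no test. Before genes were left out by name, 0.508% of the 5709 eligible probe sets met the rule, a share that includes the 21 themselves. With the sign turned, 0.596% met it, a slightly larger share. Separation of both groups alone was met on the higher side by 6.66% of the eligible and 5.81% of all probe sets.

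Differences ran from 0.41 to 0.75 on the log2 scale, 1.32-fold to 1.68-fold, with a median of 0.49 (1.40-fold), while the median over the eligible probe sets was 0.00. None reached 2-fold. The mean level ran from 5.01 to 7.47 with a median of 5.71, and 16 of the 21 lay below the median level of the eligible probe sets, 6.68.

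**Figure D1:**
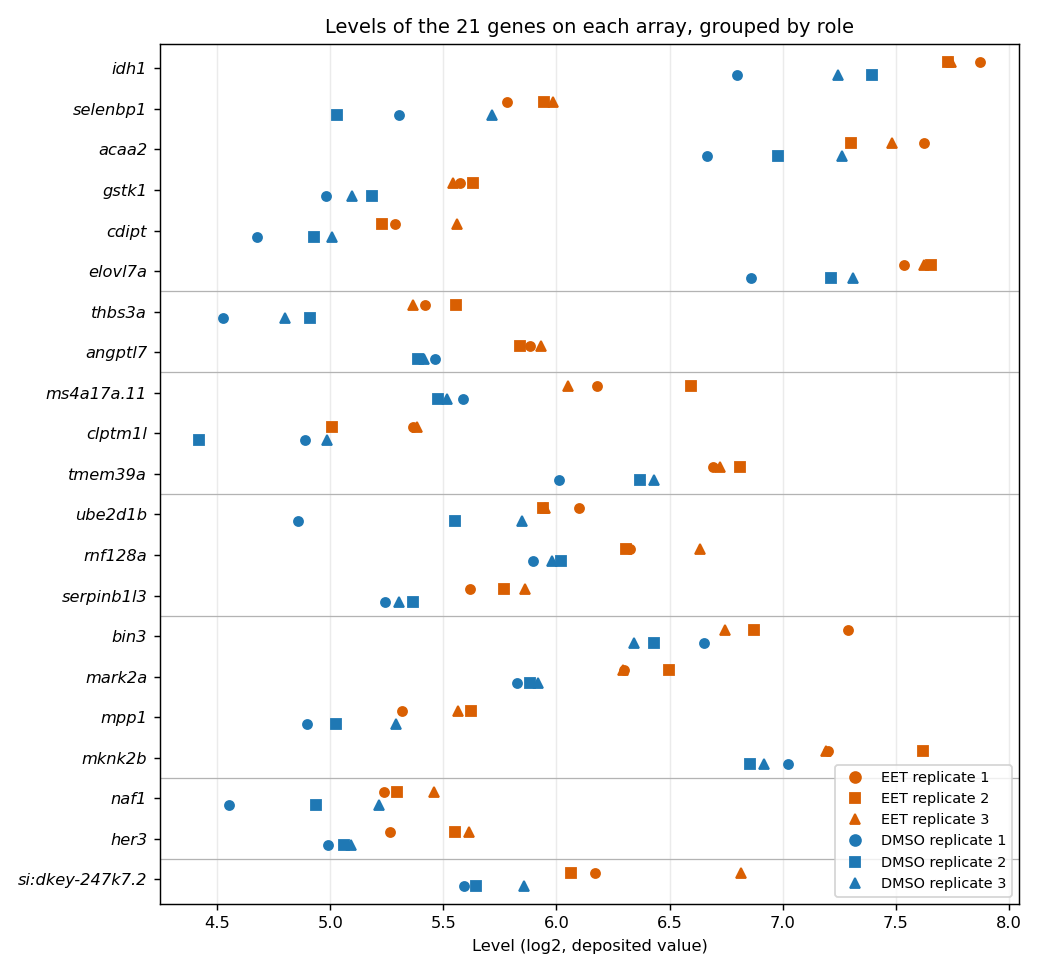
Levels of the 21 genes in log2 units on each array, grouped by role, with EET arrays in orange and DMSO arrays in blue; each symbol is 1 array and its shape gives the replicate number. The lowest EET value lies 0.02 to 0.46 above the highest DMSO value, and DMSO replicate 1 is the lowest point in 15 of 21 genes.

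**Figure D2:**
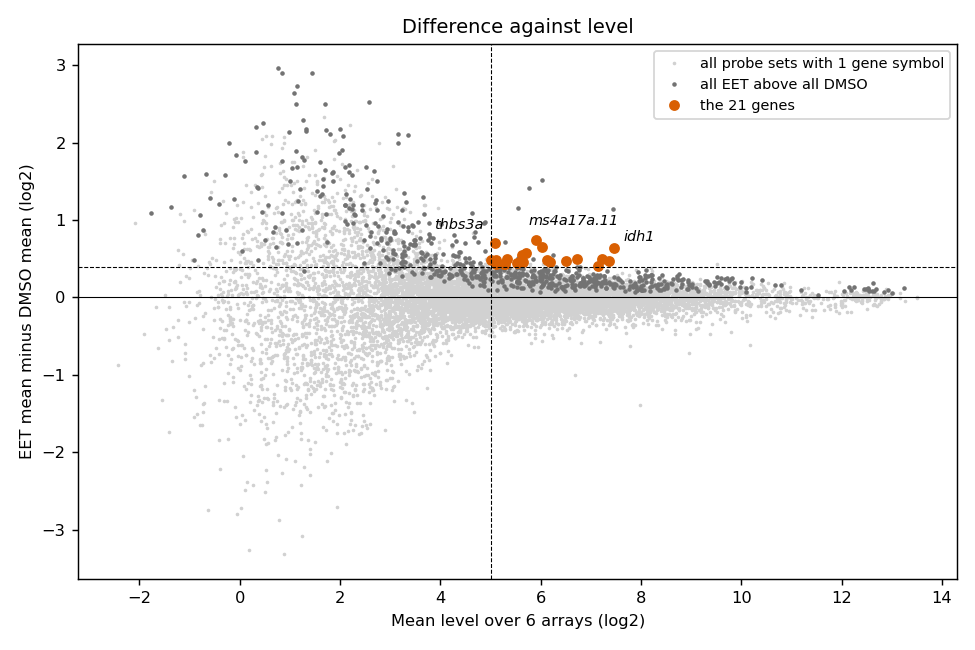
EET mean minus DMSO mean against the mean level of each probe set with 1 gene symbol, both on the log2 scale. Dashed lines mark the limits of 5 and 0.4, and the 21 genes in orange have differences of 0.41 to 0.75, with 3 of them named.

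Of the metabolic enzymes, idh1, selenbp1, acaa2, gstk1, cdipt and elovl7a were among the 21, with differences of 0.48 to 0.64. The enzyme encoded by idh1 is the cytosolic isocitrate dehydrogenase, which makes NADPH for lipid synthesis and redox defence. Its level was 7.87, 7.73 and 7.74 in EET, against 6.80, 7.40 and 7.25 in DMSO, a difference of 0.64 ± 0.18 (SE, n = 3 each). All EET arrays of idh1 lay close together, while DMSO replicate 1 was low, and without that array the difference was 0.46. The mitochondrial isocitrate dehydrogenases did not share the direction: idh2, idh3a, idh3b and idh3g all had a lower mean in EET, with differences of -0.40 to -0.06, overlapping groups and no limma call.

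The gene acaa2 encodes the mitochondrial 3-ketoacyl-CoA thiolase, which carries out the last step of each round of fatty acid beta-oxidation. Its levels were 7.62, 7.30 and 7.48 in EET, against 6.67, 6.98 and 7.26 in DMSO, a difference of 0.50 ± 0.20. The gap between the lowest EET and the highest DMSO array was only 0.04. The other enzymes of the same spiral, a list drawn up after acaa2 was known to be among the 21, all lay on the same side. Of the 8 measured, 8 had a higher mean in EET, with a median difference of 0.24, a range of 0.12 to 0.40 and no limma call. Over all 8793 genes, 4520 had a higher mean in EET and 6.37% had every EET array above every DMSO array. Whether the enzymes changed as a set was not tested. The gene acadvl, for the very-long-chain acyl-CoA dehydrogenase that opens the spiral, had a difference of 0.40 ± 0.13, just under the limit, and was the only one of the 8 whose groups did not overlap (6.81, 7.15 and 6.98 in EET, 6.43, 6.70 and 6.63 in DMSO). For acads and acadm, the short- and medium-chain dehydrogenases, the differences were 0.35 ± 0.19 and 0.26 ± 0.14. In the replicate 3 pair alone, acaa2 differed by 0.22, acads by 0.11 and acadl by -0.03, the last on the other side of 0.

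**Figure D3:**
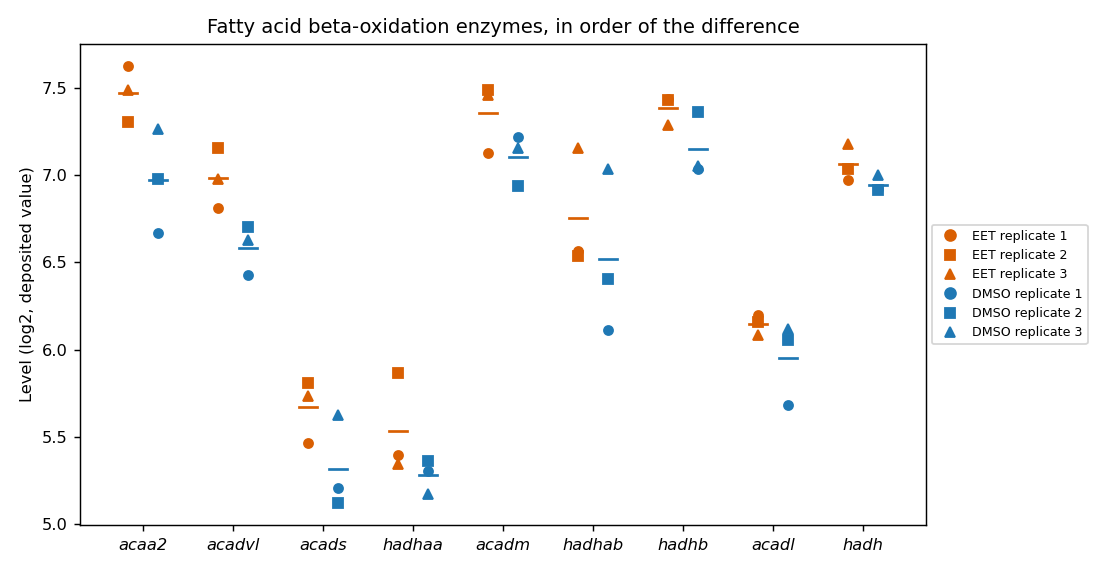
Levels in log2 units of the 9 measured enzymes of fatty acid beta-oxidation, in order of the difference, with EET arrays in orange left of DMSO arrays in blue; bars are group means over 3 arrays. The EET mean is the higher in all 9, and the groups are apart only in acaa2 and acadvl.

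The fatty acid elongase gene elovl7a, whose product adds carbons to long-chain acyl-CoAs in the endoplasmic reticulum, was the brighter of the lipid-building members. It had 7.54, 7.66 and 7.62 in EET, against 6.86, 7.22 and 7.31 in DMSO, a difference of 0.48 ± 0.14. The EET values spanned little, and DMSO replicate 1 again lay lowest. The 5 other measured elongase genes had a median difference of 0.00, 2 higher and 3 lower by mean, all with overlapping groups. Phosphatidylinositol synthase, the product of cdipt, makes the lipid from which the phosphoinositides are built. Its transcript had 5.29, 5.23 and 5.56 in EET, against 4.68, 4.93 and 5.01 in DMSO, a difference of 0.49 ± 0.14. The neighbouring enzymes of the CDP-diacylglycerol branch, cds2 and crls1, differed by 0.02 ± 0.10 and 0.13 ± 0.11.

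The remaining metabolic members act on sulfur compounds and peroxides. The glutathione S-transferase gene gstk1, of the kappa class found in mitochondria and peroxisomes, had 5.57, 5.63 and 5.54 in EET, against 4.98, 5.18 and 5.10 in DMSO. Its difference of 0.49 ± 0.06 was one of the tightest of the set and kept to 0.44 to 0.54 with any 1 array left out. The other 5 glutathione transferase genes had a median difference of 0.00, from -0.29 to 0.28. For selenbp1, which encodes a selenium-binding protein with methanethiol oxidase activity, the levels were 5.78, 5.95 and 5.98 in EET, against 5.30, 5.03 and 5.72 in DMSO, a difference of 0.55 ± 0.21. DMSO replicate 3 reached to within 0.06 of the lowest EET array.

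A list of 20 genes for lipid droplets and lipid handling, none of them among the 21, had 13 measured. Of these 9 were higher and 4 lower by mean, with a median of 0.08 against 0.01 over all genes, and limma called 0. The groups were apart for 3 of the 13 on the higher side and 1 on the lower, for angptl4, an inhibitor of lipoprotein lipase, at 0.33 ± 0.07, for acaca, the first enzyme of fatty acid synthesis, at 0.34 ± 0.16 (0.18 without DMSO replicate 3), for the lipid droplet coat gene plin3 at 0.58 ± 0.14 and, on the lower side, for the dim lipase gene lipea at -1.09 ± 0.38. The other 10 lists, from protein stress to lysosome genes, had medians between -0.06 and 0.17 with 0 limma calls, and held none of the 21 either. Over the 11 lists, 14 of 137 measured genes had every EET array above every DMSO array and 8 had every EET array below, against 6.37% and 5.78% of all 8793 genes. Among those with a mean level of 5 or more, the higher ones besides angptl4 were the fibrinogen chain gene fgb at 0.22 ± 0.08, the cathepsin gene ctsz at 0.32 ± 0.13, the desmoplakin gene dspa at 0.20 ± 0.05, and the circadian factors bhlhe40 at 0.29 ± 0.11 (0.19 without DMSO replicate 1) and tefa at 0.32 ± 0.12. The lower ones were the lamin gene lmnb1 at -0.28 ± 0.09, and atf4b, atf5a and tsc22d3, whose differences of -0.12, -0.31 and -0.17 shrank to -0.05, -0.19 and -0.09 with 1 array left out. Dimmer genes with separate groups were ctsl.1, timp2b, irg1l, irf9, klf9 and per3 on the higher side and plaua, evpla and grna on the lower side. Single arrays moved several of these: per3 differed by 1.38 ± 0.95 over all arrays and by 0.45 without DMSO replicate 1, timp2b by 1.25 ± 0.57 and, without the same array, by 0.78, and plaua by -0.92 ± 0.38 and by -0.56 without DMSO replicate 2. The glucocorticoid and circadian list, which holds bhlhe40, tefa, klf9, per3 and tsc22d3, had 6 genes higher and 8 lower by mean. Its median difference was -0.01.

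Secreted proteins were represented by thbs3a and angptl7. The product of thbs3a is a thrombospondin, a calcium-binding glycoprotein of the extracellular matrix. Levels of 5.42, 5.56 and 5.37 in EET stood against 4.53, 4.91 and 4.80 in DMSO, a difference of 0.70 ± 0.13, the second in size among the 21. The gap between the groups was 0.46, although the gene sat near the lower limit of the level. Of its relatives, thbs1b differed by 0.30 ± 0.21 and thbs4b by -0.10 ± 0.12, both with overlapping groups. The angiopoietin-like gene angptl7, known in human eyes for its expression in the cornea and trabecular meshwork, had 5.88, 5.84 and 5.93 in EET, against 5.46, 5.39 and 5.41 in DMSO. With SDs of 0.05 in EET and 0.04 in DMSO, its difference of 0.46 ± 0.03 had the smallest standard error of the 21, and it stayed between 0.44 and 0.49 with any 1 array left out. Besides angptl4, given above, its measured relatives were the dim angptl2a at -0.14 ± 1.13 and angptl5 at 1.07 ± 1.24, both overlapping.

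The membrane protein genes in the set were ms4a17a.11, clptm1l and tmem39a. The MS4A family gene ms4a17a.11, a relative of mammalian CD20, had the largest difference of the 21. Its levels were 6.18, 6.59 and 6.05 in EET, against 5.59, 5.48 and 5.52 in DMSO, a difference of 0.75 ± 0.17. EET replicate 2 was the high array, and without it the difference was 0.59. No other symbol of the MS4A family was matched among the measured genes. For tmem39a, which encodes a protein of the endoplasmic reticulum membrane, the levels were 6.69, 6.81 and 6.72 in EET, against 6.01, 6.37 and 6.43 in DMSO, a difference of 0.47 ± 0.14. Its paralog tmem39b differed by -0.10 ± 0.07.

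The probe set of clptm1l, whose human product is a multi-pass membrane protein also called CRR9, was the one closest to the limits of level and separation. It had 5.37, 5.01 and 5.38 in EET, against 4.89, 4.42 and 4.99 in DMSO, a difference of 0.49 ± 0.21, and its lowest EET array exceeded its highest DMSO array by 0.02. Without DMSO replicate 2 the difference was 0.31. A brighter probe set of the same gene had 5.81, 5.93 and 6.05 in EET and 5.80, 5.91 and 6.22 in DMSO, a difference of -0.04 ± 0.14 on the other side of 0. The related clptm1 was lower in every EET array, by a difference of -0.28 ± 0.09.

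Protein turnover and protease control are served by ube2d1b, rnf128a and serpinb1l3. The ubiquitin-conjugating enzyme gene ube2d1b had 6.10, 5.94 and 5.95 in EET, against 4.86, 5.55 and 5.85 in DMSO, a difference of 0.58 ± 0.30. The DMSO arrays of ube2d1b were widely spread (SD 0.09 in EET and 0.51 in DMSO), and the difference was 0.30 without DMSO replicate 1 and 0.10 in the replicate 3 pair alone. The closest relatives ube2d1a, ube2d2, ube2d2l and ube2d3 differed by -0.16 to 0.11. The gene rnf128a encodes a membrane-bound RING ubiquitin ligase, called GRAIL in mammals for its role in T cell anergy. Its levels were 6.33, 6.31 and 6.64 in EET, against 5.90, 6.02 and 5.98 in DMSO, a difference of 0.46 ± 0.11, and EET replicate 3 was the high array. The clade B serpin gene serpinb1l3, of a family of intracellular protease inhibitors, had 5.62, 5.77 and 5.86 in EET, against 5.24, 5.37 and 5.31 in DMSO, a difference of 0.44 ± 0.08. Their measured relatives rnf130, rnf167 and serpinb1l2 differed by -0.08 ± 0.17, 0.37 ± 0.76 and -0.15 ± 1.68, all overlapping, the last pair at levels near the bottom of the scale.

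Relatives of ms4a17a.11, rnf128a and serpinb1l3 are known from white blood cells in mammals, so the leucocyte markers were set beside them. Of 5 macrophage markers 3 were measured (lcp1, marco and csf1ra), all 3 with a higher mean in EET and none with separate groups. Their mean log2 level was 2.37 to 2.89 in EET and 1.74 to 2.32 in DMSO, without overlap, but it averages genes of which only lcp1 was above 5. The difference was 0.20 ± 0.14 for lcp1 and 0.76 ± 0.43 for the dim marco. The macrophage receptor gene csf1ra lay near or below 0 on every array, from -0.92 to 0.70 in EET and from -1.03 to -0.19 in DMSO. Of 4 neutrophil markers 2 were measured (lyz and mpx), with a mean of 6.89 to 7.23 in EET and 6.72 to 7.09 in DMSO, overlapping. Their part in the differences of the 3 genes was not tested.

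Of the kinases and scaffold proteins, bin3, mark2a, mpp1 and mknk2b met the rule, with differences of 0.41 to 0.50. The BAR domain gene bin3, whose mammalian product acts on the actin cytoskeleton, had 7.29, 6.87 and 6.75 in EET, against 6.65, 6.43 and 6.34 in DMSO, a difference of 0.50 ± 0.19. EET replicate 1 lay above the others. Its relative bin2b, at a mean level under the limit, had 3.93, 4.10 and 4.11 in EET, against 3.49, 3.48 and 3.68 in DMSO, a difference of 0.50 ± 0.09 with separate groups, and the other measured relative, bin1b, differed by -0.11 ± 0.36 with overlapping groups. The microtubule affinity-regulating kinase gene mark2a, a Par-1 kinase of cell polarity, had 6.30, 6.50 and 6.30 in EET, against 5.82, 5.88 and 5.92 in DMSO, a difference of 0.49 ± 0.07. The membrane-associated guanylate kinase homologue gene mpp1, for a scaffold of the red cell membrane skeleton, had 5.32, 5.62 and 5.56 in EET, against 4.90, 5.02 and 5.29 in DMSO, a difference of 0.43 ± 0.15 with a gap of 0.03. The gene mknk2b encodes a kinase that MAP kinases activate and that phosphorylates the translation factor eIF4E. At 7.20, 7.62 and 7.19 in EET, against 7.02, 6.85 and 6.92 in DMSO, it had the smallest difference of the 21, 0.41 ± 0.15. Without EET replicate 2, its highest array, the difference was 0.26. All measured relatives of these kinases and of mpp1 overlapped between the groups: mark3a and mark3b differed by 0.37 and -0.01, mknk1 and mknk2a by 0.19 and 0.21, and mpp2b and mpp7a by 0.11 and 0.07.

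The nuclear members were naf1 and her3. The product of naf1 helps to assemble H/ACA ribonucleoproteins, which guide pseudouridylation of RNA and belong to telomerase. Its levels were 5.24, 5.29 and 5.46 in EET, against 4.55, 4.94 and 5.21 in DMSO, a difference of 0.43 ± 0.20. DMSO replicate 3 came within 0.02 of the lowest EET array, and without DMSO replicate 1 the difference was 0.25. The core H/ACA genes dkc1 and nhp2 differed by 0.16 ± 0.16 and 0.01 ± 0.13. The gene her3 encodes a repressor of the Hairy and Enhancer of split family. It had 5.26, 5.55 and 5.61 in EET, against 4.99, 5.06 and 5.09 in DMSO, a difference of 0.43 ± 0.11. The other 10 measured her genes, several of them Notch targets, had a median difference of 0.11, 8 higher and 2 lower by mean, none with separate groups.

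One member, si:dkey-247k7.2, has no named function in the annotation used here. Its levels were 6.17, 6.07 and 6.82 in EET, against 5.59, 5.65 and 5.86 in DMSO, a difference of 0.65 ± 0.25. EET replicate 3 was high, and without it the difference was 0.42.

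For 16 of the 21 genes the array holds a single probe set with that symbol, so the difference has no second measurement. The other 5 genes had 10 further probe sets, read on the same arrays and therefore no independent sample. Of these 10, 9 had a higher mean in EET, 1 had separate groups, and the median difference was 0.22. Over all 8793 genes, 4520 had a higher mean in EET and 6.37% had every EET array above every DMSO array. The 10 belong to genes already chosen as higher in EET, so the count is a description only. For mark2a the further probe sets differed by 0.08 ± 0.05 at the brightest one, 0.35 ± 0.15 and 0.38 ± 0.15, the last with separate groups at a level near 3. For mknk2b they differed by 0.25 ± 0.23 and 0.36 ± 0.27. Besides the brighter clptm1l probe set given above, a dimmer one differed by 0.26 ± 0.19, with overlapping groups. Both remaining mpp1 probe sets overlapped between the groups, at 0.08 ± 0.06 and 0.19 ± 0.11, and the brighter her3 probe set differed by 0.06 ± 0.15. The member probe set was the brightest of its gene in 18 genes, but 16 of these have no other probe set. Of the 5 genes with several, it was the brightest in mknk2b and mpp1. In mark2a, clptm1l and her3 another probe set was the brightest, and that one showed a difference close to 0.

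**Figure D4:**
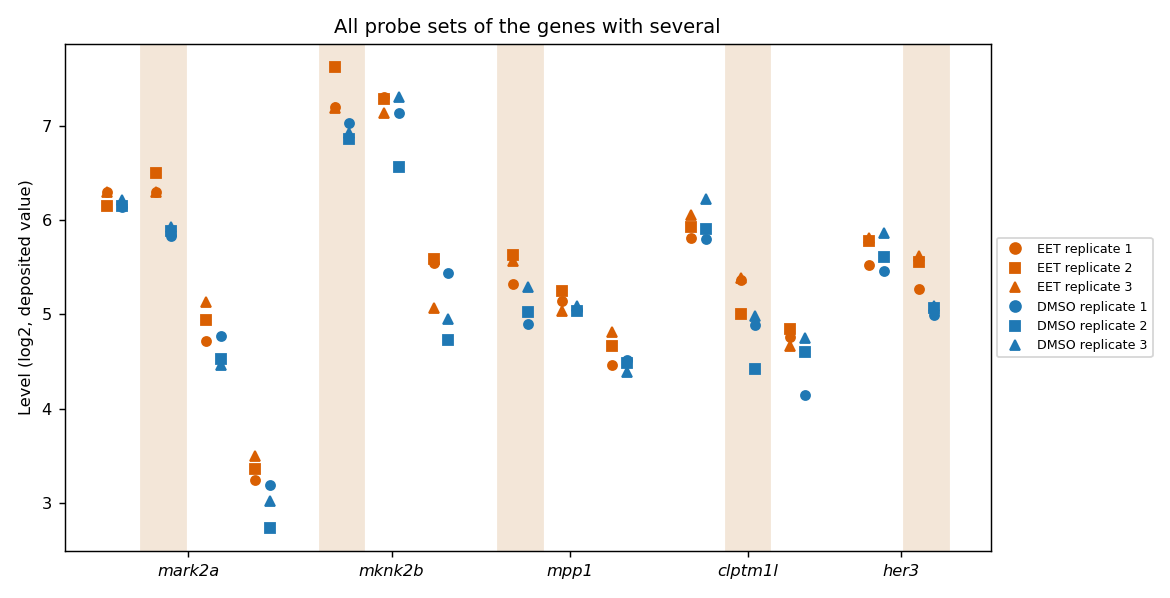
Levels in log2 units on each array for every probe set of the 5 genes with several, brightest at the left within a gene, with EET arrays in orange left of DMSO arrays in blue. Shading marks the probe set that met the rule; for mark2a, clptm1l and her3 the brightest, unshaded probe set has EET and DMSO values at nearly the same height.

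Arrays did not contribute evenly. DMSO replicate 1 was the lowest DMSO array in 15 of the 21 genes, against 33.0% of the eligible probe sets. Without it 13 of the 21 still met the rule, and those that no longer did were acaa2, cdipt, elovl7a, her3, mpp1, naf1, tmem39a and ube2d1b. The median over the 21 genes was 6.10, 5.95 and 5.98 in EET and 5.46, 5.48 and 5.72 in DMSO. Both replicate 3 arrays deviated together from their group means, with a correlation of 0.564 across probe sets with a mean of 5 or more, which are not independent replicates. In replicates 1 and 2 the median difference was 0.53, with a range of 0.36 to 0.85, and in the replicate 3 pair it was 0.40, from 0.10 to 0.96. The difference was larger in replicates 1 and 2 for 15 genes, and larger in the replicate 3 pair for si:dkey-247k7.2, cdipt, angptl7, rnf128a, serpinb1l3 and her3. Actin control probe sets at both ends of the transcript, a measure of RNA quality, also differed: the 3' level exceeded the 5' level by 2.14 to 2.30 in EET and by 1.74 to 2.01 in DMSO, without overlap. For GAPDH the excess was 0.94 to 1.27 in EET and 0.88 to 1.02 in DMSO, overlapping. The part of RNA quality in the differences of the 21 genes was not tested.

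**Figure D5:**
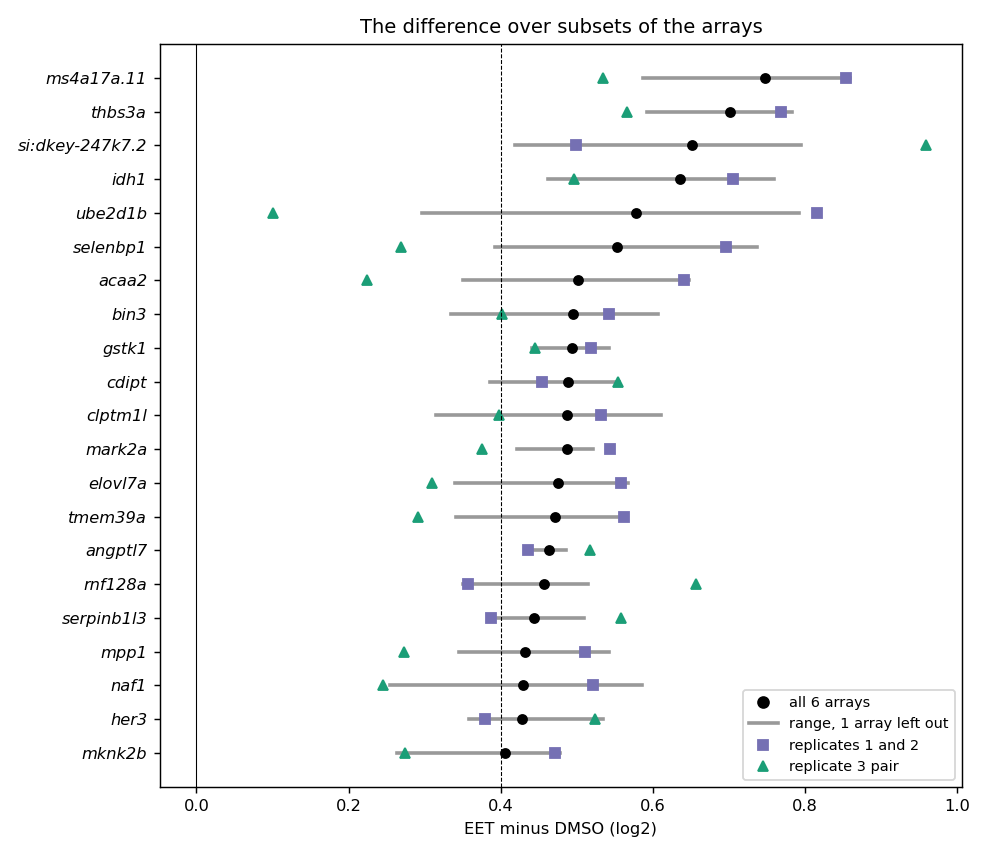
EET minus DMSO on the log2 scale for each gene over all 6 arrays (black), over replicates 1 and 2 (purple squares) and in the replicate 3 pair (green triangles), with the grey bar spanning the values when 1 array is left out. All values are above 0 because the rule placed every EET array above every DMSO array. The triangle of ube2d1b, at 0.10, is the lowest.

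At the limits of the rule there was no break. The genes just inside the limit of the difference were mknk2b at 0.41, her3, naf1 and mpp1 at 0.43 and serpinb1l3 at 0.44, and those just outside were lmo7b and acadvl at 0.40, btbd10b and zgc:194246 at 0.39 and si:ch211-183d21.1 at 0.38. Nearest the limit of the level were clptm1l at 5.01 inside and spout1 at 4.79, upb1 at 4.75 and aspn at 4.69 outside, with differences of 0.45, 0.71 and 0.84 for those outside. Just short of separation were limk2, fitm2 and rnf25, whose lowest EET array lay 0.04 to 0.06 below the highest DMSO array and whose differences were 0.44, 0.43 and 0.40.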

How the data were processed

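Per the labels' protocols, 6 µg of total RNA was turned into biotin-labelled cRNA for single-channel zebrafish arrays. The deposited table holds log2 values per probe set for 6 arrays; the background correction, summarisation and scaling are not given in the sources used here, and no detection calls were used. The log base is not stated and was read as 2 from the range of the values, -3.87 to 13.63. Controls (115) were left out. The annotation gave 1 symbol for 10795 of 15502 probe sets, several for 135 and none for 4572. All 21 members matched the RefSeq GRCz12tu gene table by Entrez identifier, with 0 symbols changed. EET and DMSO were fitted with limma 3.58.1, run in R 4.3.3 (Benjamini-Hochberg over all probe sets, calls at an adjusted p under 0.05). The fit was also run on simulated data with added changes larger than any difference of the 21. Some of the changed probe sets were missed there, and some unchanged ones were called. That run does not show how the fit performs at differences of their size. P-values set the difference between the groups against the spread between these pools within a group. Standard errors come from the SDs of both groups. For the 21 they rest on the values that the rule used, and asking for separate groups favours genes with small SDs. Lists and markers used the brightest probe set of each gene. All members are named, with the genes nearest each limit, list genes with separate groups, and relatives named or counted by family. The members and lists were chosen with earlier results of these data known, and relatives after the members were seen. A planned promoter motif search was not run because no promoter sequences were used here.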

Additional observations from a re-analysis of the deposited data

How the results depend on the processing

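With limma's 0 calls as the starting point, centring each array on its median gave 1 call, and there were 2 with log2(2^value + 32), 5 among probe sets with a mean of 5 or more, and 3 with trend and robust settings; none was one of the 21 genes. Quantile normalisation, the fit without both replicate 3 arrays (added after seeing the data), each fit without 1 array and the replicate block gave 0. Deviations of arrays of the same number correlated at 0.042, 0.056 and 0.148 over all probe sets. At a mean of 5 or more the values were 0.187, 0.249 and 0.564. There EET 1 with DMSO 2 (0.270) and EET 2 with DMSO 1 (0.310) exceeded the first 2 of these but not the last. Pairing is therefore not settled and was not used in the main fit. Differences given for the replicate 3 pair match arrays by number only. With log2(2^value + 32), which compresses low levels, 7 probe sets met the rule in place of 21. Only 4 of the 21 were among these 7 (acaa2, idh1, ms4a17a.11 and si:dkey-247k7.2). No value can fall below 5 on that scale, so the limit on the level leaves nothing out there. The count was 44 and 9 with a minimum mean of 4 and 6, and 70 and 7 with a minimum difference of 0.3 and 0.5. It was 32 to 61 with 1 array left out, where separation is easier to reach. Without both replicate 3 arrays it was 69, and 17 of the 21 still met the rule. Quantile normalisation and centring gave 22 each, with all 21 among them. The median difference of 0.49 lay between 0.33 and 0.56 over the alternatives. Of the values of single genes under the alternatives, 180 moved by less than the SD between replicates and 9 by more, all 9 with log2(2^value + 32). Leaving out 1 of the 3 arrays of a group cannot move a difference by more than that SD. The 21 values of each such setting were therefore bound to be among the 180, and the count does not measure stability to single arrays. The gene ube2d1b counted as not moved though it went from 0.58 to 0.30 without DMSO replicate 1. No direction turned in any of these values. Where arrays were left out or log2(2^value + 32) was used, none could turn, because the rule placed every EET value above every DMSO value. Precision is limited by 3 arrays a group and by levels close to the lower limit.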

Other observations

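Among probe sets with no gene symbol or several, 11 of 1595 (0.690%) with a mean of 5 or more met the numerical limits of the rule, with a median difference of 0.45. They carry no gene name here.

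In the RefSeq gene table of GRCz12tu, 6 of the 21 genes (acaa2, elovl7a, mknk2b, angptl7, her3 and bin3) lie on the same chromosome, which holds 4.24% of the 5027 eligible genes placed. A further 4 (si:dkey-247k7.2, gstk1, selenbp1 and thbs3a) share another chromosome, which holds 4.58%. These are the chromosomes with the most members, picked for that. At least 14 annotated genes lie between any neighbouring members on the first of them and 128 on the other, so none are adjacent. Of the probe sets that met the rule with the sign turned, before genes were left out by name, 2 of 34 lie on the first and 0 on the other. Of the probe sets with separate groups on the higher side, also before that step and without the limit on the difference, 5.03% and 4.76% do. The placement was counted after the members were known and was not tested.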
